A study of Saccharomyces cerevisiae with 7 samples.

Results

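The genes described here encode the NADH dehydrogenases and the malate dehydrogenases of the budding yeast Saccharomyces cerevisiae. They were chosen by gene symbol and are 6 of the 5470 genes with a probe on the arrays, namely NDI1 (YML120C), NDE1 (YMR145C), NDE2 (YDL085W), MDH1 (YKL085W), MDH2 (YOL126C) and MDH3 (YDL078C). Each was measured by 1 probe, and 6 of 6 had a value on all 7 arrays. The arrays followed a culture through the diauxic shift, when cells that have fermented glucose to ethanol turn to respiring the ethanol. Channel 2 of each array held total RNA of the culture at 0, 9.5, 11.5, 13.5, 15.5, 18.5 or 20.5 h, and channel 1 always held the reference RNA, from the culture at 0.14 OD and 19 g/L glucose. The 0 h array carried the same culture label in both channels. The culture stood at 0.46 OD and 18.7 g/L glucose at 9.5 h, 0.8 OD and 17.6 g/L at 11.5 h, 1.8 OD and 14 g/L at 13.5 h, 3.7 OD and 7.5 g/L at 15.5 h, 6.9 OD and 0.2 g/L at 18.5 h, and 7.3 OD and 0 g/L at 20.5 h. There was 1 array per time point, each from an array lot of its own. The labels name no strain and do not say whether 1 flask or several were sampled.

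Respiration in yeast is fed with NADH without the large proton-pumping complex that many other organisms use at this step. NDI1 encodes the dehydrogenase on the matrix side of the inner mitochondrial membrane, which takes NADH made by the tricarboxylic acid (TCA) cycle, and NDE1 and NDE2 encode the dehydrogenases on the outer face, which take NADH made in the cytosol. Malate dehydrogenase interconverts malate and oxaloacetate with NAD, and its isozymes sit where that reaction is needed: Mdh1 in the mitochondrial matrix for the TCA cycle, Mdh2 in the cytosol for gluconeogenesis, and Mdh3 in the peroxisome, where it regenerates NAD for fatty acid oxidation.

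All values below are log2 ratios, culture over reference, with each array centred on its median, so that 0 is the level of the typical probe and 1 is 2-fold above the reference. That direction is called likely because the dyes are not named in what was used here. It rests on the channel order in the labels and on what is known of the study. A ratio holds no absolute level, so the genes are compared here only in how far they moved from the reference. The SD between spots of one gene, from up to 75 genes spotted more than once, was lowest at 13.5 h, at 0.19, and highest at 18.5 h, at 0.45. On the 20.5 h array it was 0.36. Total RNA was compared per array, so a change in all transcripts per cell cannot be seen.

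The internal NADH dehydrogenase gene NDI1 had ratios under 0 on the first 3 arrays and rose through the second part of the course. On the 7 arrays in order of time its log2 ratio was -0.14, -0.35, -0.34, 0.38, 0.97, 1.66 and 2.22. The 4 arrays from 13.5 h on were all above the 3 earlier ones, and each was above the one before it. From 11.5 to 13.5 h, while glucose was still at 14 g/L or more, NDI1 gained 0.71, and 73 of 4807 genes gained more in that interval. At 20.5 h the ratio was 4.66-fold, with 109 of 4807 genes higher.

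The external dehydrogenase genes followed other courses. NDE1 had log2 ratios of 0.20, 0.36, 0.45, 0.36, 0.55, 0.58 and 1.53 from the first array to the last. Across the glucose exhaustion step from 15.5 to 18.5 h it moved by 0.03, and between 18.5 and 20.5 h it gained 0.95, a step that 179 genes exceeded. The last array was the single one on which NDE1 was at least 2-fold above the reference. NDE2 had log2 ratios of -0.07 at the start, 1.30 at 9.5 h, then -0.05, 0.10 and 0.10, and on the last arrays 1.98 and 3.08. It was therefore near the reference from 11.5 to 15.5 h, gained 1.88 across the exhaustion step, and ended 8.43-fold above the reference, where 29 genes were higher.

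**Figure D1:**
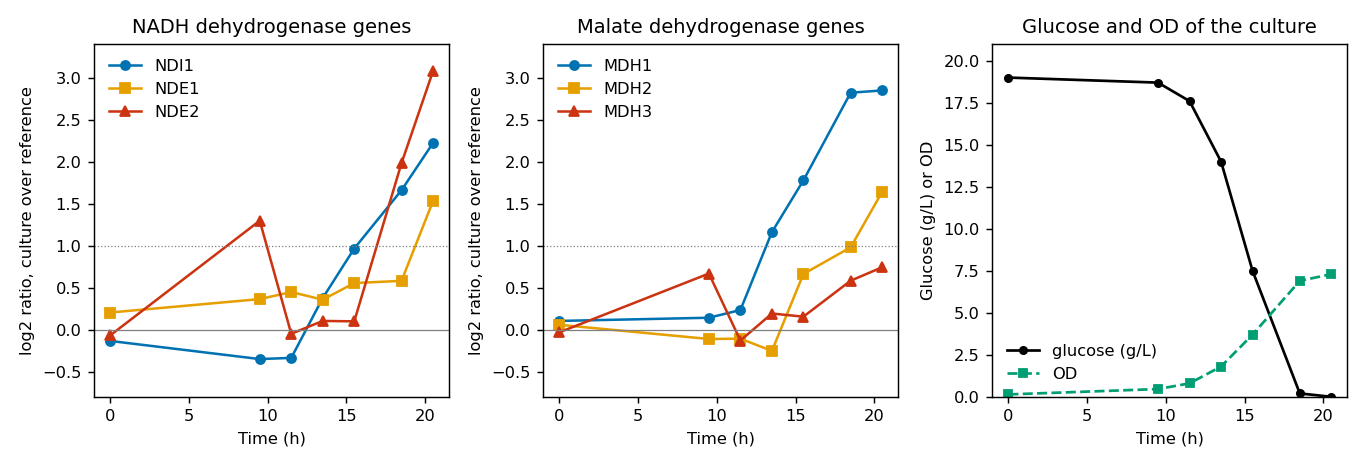
Centred log2 ratio of culture over reference against time in hours for the NADH dehydrogenase genes (left) and the malate dehydrogenase genes (middle), 1 array per point with no replicates, and glucose in g/L with OD (right). The dotted line marks 2-fold above the reference. MDH1 was 2-fold above the reference from 13.5 h on, NDI1 from 18.5 h on, NDE2 at 9.5 h and again from 18.5 h on, and MDH3 ended lowest at 0.74.

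The malate dehydrogenase gene of mitochondria had the highest ratios of its family from 11.5 h on. MDH1 had log2 ratios of 0.10, 0.14 and 0.23 on the first 3 arrays, and of 1.16, 1.78, 2.82 and 2.85 on the last 4. It was already 2.23-fold above the reference at 13.5 h, where 50 of 4807 genes were higher. Its gain of 0.93 from 11.5 to 13.5 h was exceeded by 29 genes. Between 18.5 and 20.5 h it moved by 0.03, less than the spread between spots.

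The cytosolic gene MDH2 had log2 ratios of 0.06, -0.11, -0.11 and -0.25 on the first 4 arrays, and of 0.66, 0.98 and 1.64 on the last 3. Its 3 last arrays lay above its 4 first. The gain of 0.92 from 13.5 to 15.5 h, exceeded by 19 genes, came 1 sampling interval after the first large gain of MDH1. At 20.5 h it was 3.12-fold above the reference.

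The peroxisomal gene MDH3 had log2 ratios of -0.03 at the start, 0.67 at 9.5 h, and -0.13, 0.19, 0.15, 0.58 and 0.74 on the arrays after that. None of its 7 values was 2-fold from the reference, and the value at 9.5 h lay between those of the late arrays.

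The high values of NDE2 and MDH3 at 9.5 h were shared by the probes next to them on the same array. Neighbours were taken as the probes within 8 probe IDs on either side. At 9.5 h the 16 neighbours of NDE2 had a median of 0.71, 15 of 16 were above 0, and they ranged from -0.13 to 1.27. The 16 neighbours of MDH3 had a median of 0.63, and 16 of 16 were above 0. Both genes lie on the left arm of chromosome IV with 6 genes between them in RefSeq's order, yet their probe IDs are far apart. On the other 6 arrays the neighbours' medians lay between -0.19 and 0.11 for NDE2 and between -0.47 and 0.09 for MDH3. With the neighbours' median subtracted, an alternative added after the values were seen, the 9.5 h value was 0.58 for NDE2 and 0.04 for MDH3. For MDH3 the same subtraction raised the late values to 1.02 at 18.5 h and 1.22 at 20.5 h. What the neighbours share was not tested.

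**Figure D2:**
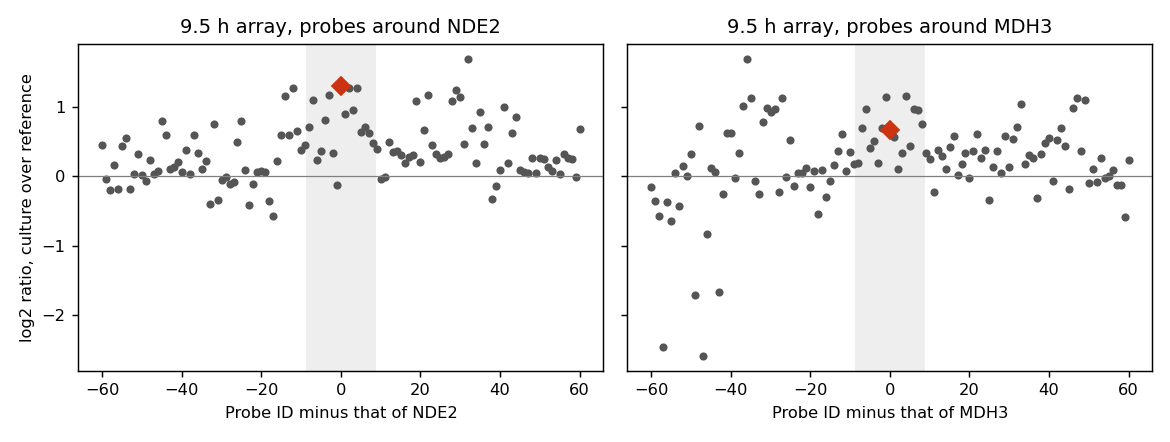
Centred log2 ratios on the 9.5 h array for probes up to 60 IDs on either side of NDE2 (left) and MDH3 (right), with the gene itself as a diamond and the 16 neighbours in the shaded band. The band around NDE2 has a median of 0.71 and that around MDH3 a median of 0.63, and other raised runs are seen farther out.

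The neighbours of NDE1 were raised on the late arrays, though not in step with NDE1. They had a median of -0.07 at 15.5 h. It was 0.65 at 18.5 h, with 12 of 16 above 0, and 0.58 at 20.5 h, with 12 of 15 above 0. NDE1 itself moved by 0.03 from 15.5 to 18.5 h and gained 0.95 from 18.5 to 20.5 h. Minus the neighbours' median, NDE1 was at -0.07 at 18.5 h and 0.95 at 20.5 h. For NDI1, MDH1 and MDH2 the neighbours' medians on the last 2 arrays lay between -0.16 and 0.28, well under the genes' own values.

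Counted by array, 0 of the 6 genes were at least 2-fold above the reference at 0 h and at 11.5 h, where 0% and 0.582% of all 4807 genes were. At 9.5 h NDE2 was (0.499% of all genes), and at 13.5 and 15.5 h MDH1 was (1.62% and 3.58%). At 18.5 h the count was 3, for MDH1, NDE2 and NDI1, against 11.9% of all genes. At 20.5 h it was 5, all but MDH3, against 11% of all genes. The number at least 2-fold below the reference was 0 on every array. Over all genes that share ran from 0.291% at 11.5 h to 11.7% at 18.5 h, and was 11.4% at 20.5 h. In order of the ratio at 20.5 h the genes were NDE2, MDH1, NDI1, MDH2, NDE1 and MDH3. NDE2 and MDH1 differed by 0.23 there, and MDH2 and NDE1 by 0.11, both less than the spot SD of 0.36. The other gaps, 0.63 between MDH1 and NDI1, 0.58 between NDI1 and MDH2 and 0.79 between NDE1 and MDH3, exceeded it. That SD is for 1 spot, and a difference between 2 genes varies more, so this order is not firmly resolved.

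Whether each gene changed as glucose was used up was tested with limma, by regression of the log2 ratio on the share of glucose consumed, fitted on all 4807 genes with a value on 7 arrays. The fitted change given is the log2 difference between full and exhausted glucose. Of the 6 genes 5 rose at a Benjamini-Hochberg adjusted p under 0.05, where 19.5% of all genes did, and 0 fell (19% of all genes, 38.5% in either direction). Their median fitted change was 1.76 against 0.02 for all genes.

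MDH1 rose by 2.73 ± 0.20 (SE; limma adjusted p = 9.01e-05), which is 6.61-fold and rank 37 of 4807 genes. NDI1 rose by 2.26 ± 0.22 (limma adjusted p = 1.46e-04), rank 88. These 2 kept their calls in every alternative fit that was run. With hours in place of glucose the limma adjusted p was 0.0391 for MDH1 and 0.0489 for NDI1, close to the limit. MDH2 rose by 1.46 ± 0.26 (limma adjusted p = 0.00184). Its call was lost when hours replaced glucose (adjusted p = 0.103) or log2 OD did (0.0512).

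NDE2 rose by 2.06 ± 0.61 (limma adjusted p = 0.0220), with the widest error of the 6. Leaving out any of 4 arrays ended the call: 0 h (adjusted p = 0.0535), 11.5 h (0.0502), 18.5 h (0.0815) and 20.5 h (0.164), the last with a fitted change of 1.23. The call held with the 9.5 h array left out, at 2.64, and after centring on the neighbouring probes, at 2.43 ± 0.49 (adjusted p = 0.00374). NDE1 passed narrowly, at 0.74 ± 0.27 (limma adjusted p = 0.0492). It did not pass when the 0, 9.5, 11.5, 13.5 or 20.5 h sample was dropped, was at 0.29 without the last of these, and was at 0.061 ± 0.28 after centring on neighbours (adjusted p = 0.871).

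MDH3 did not pass, at 0.46 ± 0.26 (limma adjusted p = 0.182; 95% interval -0.12 to 1.05). Without the 9.5 h array it was at 0.72 and passed (adjusted p = 0.0402). After centring on the neighbouring probes it was at 1.14 ± 0.19 (adjusted p = 0.00128).

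**Figure D3:**
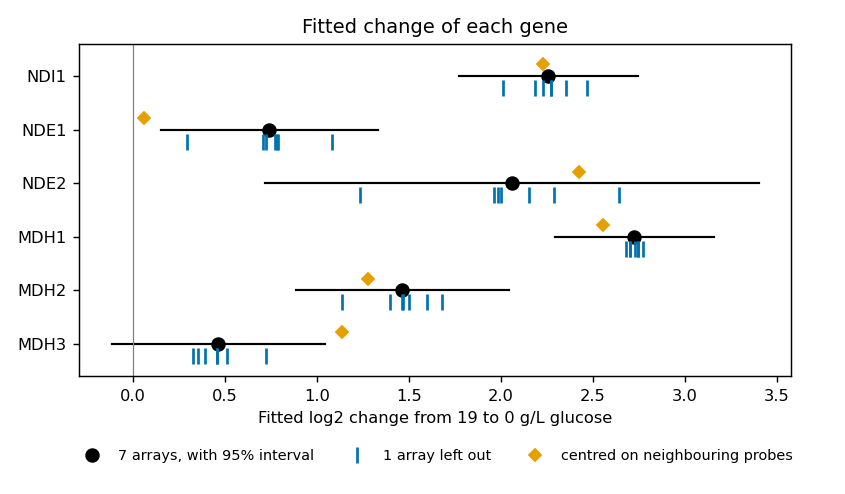
Fitted log2 change of each gene over the range of glucose, with the 95% interval of the fit to 7 arrays as a black line. Blue ticks are the fits with 1 array left out, and orange diamonds the fit after centring on neighbouring probes. The ticks of MDH1 lie between 2.68 and 2.77, while those of NDE2 run from 1.23 to 2.64.

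The members of each family were then compared with each other, which cancels anything an array adds to both. For 6 pairs the difference of the log2 ratios on each array was regressed on the share of glucose consumed, with an exact two-sided permutation test over all orders of the 7 arrays. The smallest p it can give is 1.98e-04, and it treats the arrays as exchangeable, which samples of one time course need not be.

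NDI1 had a steeper rise than NDE1 over the range of glucose, a call that several alternatives ended. The difference between them, NDI1 minus NDE1, was -0.34, -0.71 and -0.78 on the first 3 arrays and 0.02, 0.41, 1.08 and 0.69 on the last 4. The -0.34 came from the 0 h array, which carried the same culture label in both channels. The 0.02 at 13.5 h was under the spot SD of 0.19, so the point where the sign turned is not resolved. The slope of the difference was 1.52 ± 0.23 (SE, 7 arrays; exact permutation p = 0.00317, adjusted over the 6 pairs 0.00952). It did not pass with hours (adjusted p = 0.136) or without the 13.5 h or the 15.5 h array (0.05 each). Nor did it as the mean of the last 2 arrays minus that of the earlier 5 (0.0952). There its exact p of 0.0476 was the smallest that 21 splits can give, so adjustment left almost no room to pass. Without both early arrays, 0 and 9.5 h, it was at 0.05, with only 120 orders. NDI1 and NDE2 had a slope difference of 0.20 ± 0.81 (exact p = 0.807, adjusted 0.807), whose sign turned in several settings. Here the data set no close bound, because NDE2 was above NDI1 by 1.65 at 9.5 h and by 0.86 at 20.5 h and below it by 0.87 at 15.5 h. NDE1 minus NDE2 had a slope of -1.32 ± 0.71 and did not pass (exact p = 0.135, adjusted 0.161). After centring on neighbouring probes it was -2.37 and passed (adjusted p = 0.0429).

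Among the malate dehydrogenase genes MDH1 had a steeper rise than MDH3 over the range of glucose and lay above it on 6 of 7 arrays. The difference was 0.14 on the first array, under the spot SD of 0.21, and -0.53 on the next, and then 0.36, 0.97, 1.62, 2.24 and 2.11. The slope was 2.26 ± 0.32 (exact permutation p = 0.00119, adjusted 0.00714), and 1.42 after centring on neighbouring probes (adjusted p = 0.00595). It did not pass with hours (adjusted p = 0.0690). Nor did it without both early arrays (0.05, from 120 orders) or as late minus early arrays (0.0952, from 21 splits). With the 21 splits, adjustment left almost no room to pass. MDH1 stood above MDH2 on 7 of 7 arrays, by 1.41 at 13.5 h and 1.21 on the last. The gaps of 0.05 at 0 h and 0.25 at 9.5 h were under the spot SDs of 0.21 and 0.41. The slope of MDH1 minus MDH2, 1.26 ± 0.39, did not pass after adjustment (exact p = 0.0359, adjusted 0.0670), and it did with the 13.5 h sample left out (adjusted p = 0.0333) or the last one (0.0194). MDH2 minus MDH3, at 1.0 ± 0.37, did not pass either (exact p = 0.0446, adjusted 0.0670). It was 0.14 after centring on neighbouring probes.

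The genes whose courses lay closest to each member were found by the root-mean-square difference of the log2 ratios over the 7 arrays. For MDH1 the nearest was QCR7, of the cytochrome bc1 complex, at 0.17, then SDH2 at 0.17 and SDH4 at 0.21, both subunits of succinate dehydrogenase, the enzyme that precedes malate formation in the TCA cycle. On the arrays of 13.5, 15.5, 18.5 and 20.5 h QCR7 had 1.10, 1.41, 2.63 and 2.81. MDH1 had 1.16, 1.78, 2.82 and 2.85 there. For NDI1 the nearest was COX5A, a subunit of cytochrome c oxidase, at 0.16, and the third was PFK26, a 6-phosphofructo-2-kinase gene, at 0.20. For NDE1 they were PCS60, which encodes a peroxisomal enzyme, at 0.14, DOT6, a repressor of ribosome-related genes, at 0.18 and MIX23, a mitochondrial intermembrane space protein, at 0.18. For MDH2 they were ECM18 at 0.19, HMRA1 at 0.20 and SSA3, a stress-induced Hsp70 gene, at 0.21. HMRA1 belongs to the silent mating-type cassettes, which have near-identical copies, so its value may hold signal of another copy.

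By this distance NDE2 had no close match. Its nearest genes were YDL199C at 0.46, TKL2, a transketolase isozyme gene, at 0.47 and HBT1 (YDL223C) at 0.49, all of them farther away than the third-nearest gene of any other member. On the 9.5 h array these 3 had 0.32, 0.63 and 0.69, under the 1.30 of NDE2. The nearest to MDH3 were YBR284W at 0.14, MSS2 (YDL107W) at 0.14 and EDE1, an endocytosis gene, at 0.16. On the 9.5 h array they were at 0.54, 0.64 and 0.88, beside 0.67 for MDH3, and MSS2 lies among the 16 neighbouring probes of NDE2. By Pearson correlation in place of the distance, 0 of the 3 nearest genes stayed for NDI1, NDE1, MDH1 and MDH2, and 1 for NDE2 and MDH3. The highest correlation with any gene was 0.974 for NDE2, above the 0.951 for MDH3.

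Other dehydrogenases pass electrons to the same respiratory chain without NADH. Of 7 such genes 5 could be tested, and 4 rose and 0 fell, beside 19.5% and 19% of all genes, with a median fitted change of 2.08 against 0.02 for all genes. The succinate dehydrogenase genes SDH4, SDH2 and SDH3 rose by 2.70 ± 0.24, 2.49 ± 0.24 and 2.08 ± 0.26. GUT2, the mitochondrial glycerol-3-phosphate dehydrogenase gene, rose by 0.68 ± 0.23, but its 2 probes stood at 1.05 and -0.18 at 18.5 h. DLD1, a D-lactate dehydrogenase gene, was at 0.35 ± 0.29 and did not pass. SDH1 and CYB2, the L-lactate cytochrome c oxidoreductase gene, each had 1 blank and stood at 2.31 and 3.21 at 20.5 h. With genes of at least 5 values admitted, 6 of 7 rose, beside 1036 of all 5456 genes.

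Genes of enzymes and carriers at or next to malate and oxaloacetate went several ways. Of 18 genes 14 could be tested, and 6 rose and 1 fell (19.5% and 19% of all genes), with a median of 0.59. SFC1, the succinate and fumarate carrier gene, rose by 2.95 ± 0.71, the citrate synthase genes CIT1 by 2.67 ± 0.27 and CIT2, the peroxisomal isozyme, by 1.90 ± 0.59, the fumarase gene FUM1 by 1.49 ± 0.36, and ODC1, an oxodicarboxylate carrier gene, by 0.98 ± 0.27. Its paralogue ODC2 at -0.23 ± 0.26, the malic enzyme gene MAE1 at -0.03 ± 0.29 and DAL7, a malate synthase isozyme gene, at 0.45 ± 0.35 did not pass. AAT1, the mitochondrial aspartate aminotransferase gene, whose product shares oxaloacetate with Mdh1, fell, at -0.97 ± 0.27 (limma adjusted p = 0.0175), a call lost when the first or the last array was left out and with the values as deposited. Its cytosolic counterpart AAT2 was at -0.39 ± 0.23 and did not pass, nor did the aspartate-glutamate carrier gene AGC1 at 0.14 ± 0.22. The pyruvate carboxylase genes PYC1 and PYC2, which make oxaloacetate from pyruvate, were at 0.77 ± 0.74 and 0.49 ± 0.51 and did not pass. PYC1 stood at -0.91 at 18.5 h and 2.04 at 20.5 h. PCK1, the gluconeogenic carboxykinase gene, and MLS1, the malate synthase gene, each had 1 blank. PCK1 went from 0.34 at 18.5 h to 4.10 at 20.5 h and MLS1 from 0.70 to 3.51, while MDH2 went from 0.98 to 1.64. With the last array left out 3 of these genes rose and 0 fell, beside 724 and 748 of all 4937 genes. With hours in place of glucose 1 rose (266 of 4807), and with log2 OD 2 did (597 of 4807).

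Genes that make or take NADH in the cytosol and mitochondria were divided between genes that rose and genes that did not pass. Of 18 genes 16 could be tested, and 7 rose and 0 fell (19.5% and 19% of all genes), with a median of -0.20. With hours in place of glucose 4 rose, beside 266 of all 4807 genes. The largest changes were those of ALD4, the mitochondrial aldehyde dehydrogenase gene, at 2.31 ± 0.23, KGD1 at 1.96 ± 0.47 and KGD2 at 1.94 ± 0.33 of the ketoglutarate dehydrogenase complex, GPD1, a cytosolic glycerol-3-phosphate dehydrogenase gene, at 1.70 ± 0.24, and the isocitrate dehydrogenase genes IDH1 at 1.61 ± 0.25 and IDH2 at 1.11 ± 0.19. The glyceraldehyde-3-phosphate dehydrogenase genes TDH1, TDH2 and TDH3, sources of cytosolic NADH in glycolysis, were at -0.43, -0.38 and -0.47 and did not pass. Nor did ADH2 at -0.73, ADH3 at -0.23, ADH4 at -0.44, GPD2 at -0.39, PDA1 at -0.24 and PDB1 at -0.17. The TDH genes, and ADH1 with ADH2, are near-identical copies whose signals these probes may not separate. How far probes of NDE1 and NDE2, or of the MDH genes, bind each other's transcripts was likewise not tested.

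Of 11 peroxisomal genes set beside MDH3, 10 could be tested, and 6 rose and 0 fell (19.5% and 19% of all genes), with a median of 1.23. CAT2, a carnitine acetyltransferase gene, rose by 2.13 ± 0.48, POT1, the thiolase gene, by 1.54 ± 0.41, ECI1 by 1.42 ± 0.28 and SPS19 by 1.27 ± 0.21, both auxiliary enzymes for unsaturated fatty acids, and PXA2, a fatty acid transporter subunit gene, by 1.25 ± 0.28. POX1, the acyl-CoA oxidase gene, was at 0.58 ± 0.47 and did not pass, nor did CTA1, the peroxisomal catalase gene, at 1.22 ± 0.46, PEX7 at 1.0 ± 0.40 and PXA1 at 0.61 ± 0.26. The list had medians of -0.38 at 0 h and -0.48 at 9.5 h, so the fitted changes started in part from values under 0. Both channels of the 0 h array carried the same culture label, so its -0.38 cannot be read as a level below the reference. What set that value was not tested. The count of rising genes fell to 3 with the 20.5 h array dropped and 2 without both early arrays. It was 1 with hours in place of glucose. Among all genes 724 of 4937, 392 of 5012 and 266 of 4807 rose in those settings. The list's count was 8 with the values as deposited and 7 after centring on neighbouring probes. Dropping 11.5 h gave 8 and dropping 15.5 h gave 9. Counts among all genes were then 1223 and 982 of 4807, 974 of 4908 and 1158 of 4864. The list's count was 5 with log2 OD, with the 0 h array as baseline, and with the 0 or 9.5 h sample left out.

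Mdh2 protein is destroyed when glucose returns to starved cells, by the GID ubiquitin ligase and vacuolar import. Of 9 genes of these pathways 5 rose and 0 fell (19.5% and 19% of all genes), with a median of 0.61. UBC8, the ubiquitin-conjugating enzyme gene, rose by 2.05 ± 0.44, FYV10 by 1.88 ± 0.34, GID8 by 1.21 ± 0.28, RMD5 by 1.14 ± 0.37 and VID28 by 0.61 ± 0.19. VID24, the substrate receptor gene, was at 0.48 ± 0.31 and did not pass, nor did GID7 at 0.11, VID30 at 0.01 and VID22 at -0.58. The count was 3 when the 0, 9.5 or 18.5 h array was left out and with log2 OD, 2 without both early arrays and 1 with hours. Over all genes 658 of 4822, 702 of 4997 and 593 of 4809 rose without the 0, 9.5 or 18.5 h array. With log2 OD 597 of 4807 did, without both early arrays 392 of 5012, and with hours 266 of 4807.

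**Figure D4:**
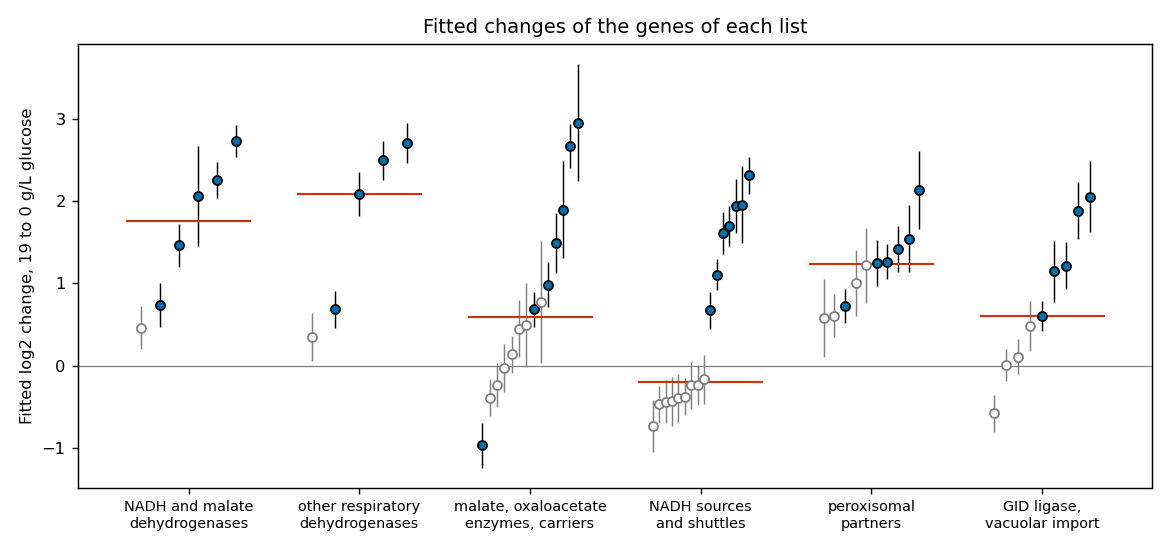
Fitted log2 change over the range of glucose for each tested gene in the lists, with its SE as a bar and the list's median as a red line. Filled points passed the limma test over all genes and open points did not. The other respiratory dehydrogenases have a median of 2.08 and the NADH sources and shuttles a median of -0.20, with 7 genes that rose above a group that did not pass.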

How the data were processed

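The series held 7 arrays with 2 channels, grouped by the time in each title. The deposited values are log ratios, scanned with ScanAlyze version 2.41 per the labels. Nothing used here records the background correction, the dye normalization, spot filters, the genome build or why cells are blank. The deposited ratios were taken as log2 from the values: 205 lay at the 164 places of small whole-number ratios against 156.83 interpolated from neighbouring places, while natural log gave 425 against 429.59 and log10 gave 2528 against 2586.1.

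Of 6400 probes 5548 had 1 gene symbol, 0 several and 852 none. All 5548 matched a RefSeq gene by Entrez ID. Arrays held 6048 to 6342 values with medians from -0.033 to 0.216 and were centred on their medians. Whether the authors centred them is not stated. The lowest correlation between arrays was -0.28 (18.5 and 0 h, 6306 probes). Spots of one gene were averaged. Of 5470 genes 4807 had 7 values and 663 were left out for a blank.

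The trend was fitted with limma 3.58.1 in R 4.3.3 (lmFit, eBayes, 5 residual and 5.46 prior degrees of freedom). Its p-values, and those of the exact permutation tests (Python 3.11.15), measure scatter about a line over one time course, not spread between cultures. They treat neighbouring samples as independent, so they may be too small. Time, OD, glucose and array lot cannot be told apart. With 1 array per time point the number of arrays limits the precision. Both tests were checked on simulated data with independent noise on each array. That check cannot show how they behave when neighbouring samples depend on each other.

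The genes and lists were chosen with earlier results of these data known. The naming rule took the 6 genes, the 3 nearest courses of each, and from each list up to 6 genes with the largest fitted change in either direction and those that did not pass, and genes with blanks were added after their values were seen. One gene among the nearest courses of NDI1 is not reported here.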

Additional observations from a re-analysis of the deposited data

How the results depend on the processing

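MDH1 and NDI1 kept direction and call in every fit run, NDI1 narrowly with hours (limma adjusted p = 0.0489). Leaving out 1 array gave fitted changes of 0.29 to 1.08 for NDE1, 1.23 to 2.64 for NDE2 and 0.32 to 0.72 for MDH3. The NDE1 call was also lost with hours (0.046 per h), log2 OD (0.141 per doubling), the 0 h array as baseline (0.71), both early arrays left out (0.76), genes of at least 5 values (0.74, adjusted p = 0.0507) and neighbour centring (0.061), and the cause was not tested. NDE2 lost its call with hours (0.118), log2 OD (0.352) and the 0 h baseline (2.0), and MDH2 with hours (0.072) and log2 OD (0.249). MDH3 gained one with neighbour centring (1.14). A slope from the 0 h baseline equals that without the 0 h array by construction.

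Of the pairs, NDI1 minus NDE1 ran from 1.38 to 1.72 with 1 array left out (adjusted p = 0.05 without the 13.5 h or 15.5 h array). It did not pass with hours (0.074), without both early arrays (1.6) or as late minus early arrays (1.17). MDH1 minus MDH3 did not pass in the same settings (0.124, 1.86 and 1.66). With 5 arrays, or with the 21 ways to pick 2 late arrays, few orders exist, which limits how small an adjusted p can be. With the 21 ways, an adjusted p under 0.05 would need all 6 pairs at the smallest possible p. Not passing in these settings therefore says little about either pair. NDI1 minus NDE2 turned sign without both early arrays (-0.58), as late minus early (-0.42), with neighbour centring (-0.20) and with 1 array left out (-0.41 to 0.78). NDE1 minus NDE2 passed with neighbour centring (-2.37). MDH1 minus MDH2 passed with log2 OD (0.283), with neighbour centring (1.28) and ran from 1.07 to 1.61 with 1 array left out.

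For the malate and oxaloacetate list 1 gene rose with hours, 2 with log2 OD, 2 without both early arrays and 3 to 6 with 1 array left out. Its 1 fall became 0 as deposited, with the 0 h baseline and without both early arrays, and 0 to 1 with 1 array left out. The NADH source list had 4 rising with hours, 1 falling with neighbour centring and 0 to 1 falling with 1 array left out. The peroxisomal list had 1 rising with hours, 2 without both early arrays and 3 to 9 with 1 array left out. The GID list had 1 rising with hours, 3 with log2 OD, 3 with the 0 h baseline, 2 without both early arrays and 3 to 5 with 1 array left out. It had 1 falling with neighbour centring and 0 to 1 with 1 array left out. Against the 0 h array 2 of the 6 genes were 2-fold higher at 15.5 h, but the share of all genes was not counted for that baseline. Against the reference it was 1 gene, beside 3.58% of all genes. Over all 4807 genes 936 rose and 913 fell, as deposited 1223 and 708, with hours 266 and 233, with log2 OD 597 and 512, and without both early arrays 392 and 444 of 5012. With the 0 h baseline 659 rose and 690 fell, and with neighbour centring 982 and 993. With 1 array left out 593 to 1158 rose and 638 to 1093 fell. As deposited the median gene was fitted at 0.20 and the same 5 members rose. No paired analysis was possible because each group held 1 array. A table of ratios holds no signal over background, so no limit of detection can be given.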
